A study of Mus musculus with 8 samples.

Results

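Transcript levels of 7 genes of PACAP, VIP and BDNF signalling were compared across 4 hypothalamic nuclei of the mouse: the peptide genes *Adcyap1* (PACAP) and *Vip*, their receptor genes *Adcyap1r1*, *Vipr1* and *Vipr2*, the neurotrophin gene *Bdnf* and its receptor gene *Ntrk2*. Every probe whose RefSeq accession belongs to one of these genes was taken, which gave 12 of the 55681 probes on the array and 7 of the 20284 genes that could be named. *Adcyap1* and *Bdnf* both had their highest mean in the ventromedial nucleus and their lowest in the arcuate nucleus. The ventromedial nucleus exceeded each other nucleus past the threshold for *Adcyap1*, and the arcuate nucleus alone for *Bdnf*. *Adcyap1r1* and *Ntrk2* were measured in all 4 nuclei with no difference past the threshold, whereas no probe of *Vip*, *Vipr1* or *Vipr2* was measured on both arrays of a nucleus.

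PACAP and VIP are related peptides of the secretin family and act through class B G protein-coupled receptors that raise cyclic AMP. The receptor encoded by *Adcyap1r1* (PAC1) prefers PACAP, whereas those encoded by *Vipr1* and *Vipr2* bind both peptides. BDNF is a secreted growth factor that acts on the receptor tyrosine kinase TrkB, the product of *Ntrk2*. In the hypothalamus, PACAP and BDNF of the ventromedial nucleus are known for their roles in satiety and energy expenditure, and VIP is best known from neurons of the suprachiasmatic nucleus, which was not among the samples analysed here.

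The samples were the arcuate nucleus (Arc), the ventromedial (VMH) and dorsomedial (DMH) nuclei and the lateral hypothalamus (LH), cut by laser microdissection from 3-month-old female C57BL/6 mice (C57BL/6J in the methods), whose labels name no treatment or transgene. Each nucleus had 2 arrays, numbered 1 and 2, for 8 in all, and the study's methods name 2 animals. The labels do not tie arrays to animals, so the p-values measure only the spread between these arrays, which may be technical. In dissected tissue, fewer cells of a type and less RNA per cell cannot be told apart.

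The arrays were read in 1 color, and a value given here as scaled signal is the deposited intensity of a probe after each array was scaled to the 75th percentile of its probes. A probe was counted as measured on an array where the scanner software called it well above background, and it was tested where both arrays of at least 1 nucleus measured it. The lowest scaled signal of a measured probe lay between 79.3 and 132 on the 8 arrays, and 47.1% to 52.7% of the spots of an array were well above background. The 2 arrays of a nucleus correlated at 0.971 to 0.981 over the tested probes in the Arc, VMH and DMH and at 0.938 in the LH, where the second array correlated more closely, at 0.954, with the second DMH array. Summed markers of the Arc, VMH and DMH were highest in the nucleus they mark. Those of the LH (*Hcrt*, *Pmch* and *Pvalb*) summed to 129476 and 141151 on the LH arrays but also to 72623 and 63344 on the DMH arrays, against 401 to 4653 in the Arc and VMH. The DMH sums rested on *Hcrt* (55940 and 51283, against 105971 and 116750 in the LH) and *Pmch* (16253 and 11631, against 17650 and 17005). *Pvalb* was low there, at 430 and 429, against 5855 and 7396 in the LH. All 8 of 8 oligodendrocyte markers differed among the nuclei, with sums of 111579 and 117552 in the LH and of 12436 to 41173 elsewhere. Of the 7 tanycyte and ependymal markers, 5 were tested and 4 of them called, with sums of 7351 and 6804 in the Arc and of 1868 to 3087 elsewhere. Of the 7 neuron markers, 1 was called, *Rbfox3*, at 2613 and 3725 in the Arc, 11776 and 11171 in the VMH and 5122 to 8034 in the DMH and LH. The 5 neuron markers with a value on every array summed to 183615 and 159649 in the Arc, 226415 and 185551 in the VMH and 169138 to 193496 elsewhere. Of the 7 suprachiasmatic markers, 5 were tested and 4 of them called, with sums of 2603 and 3620 in the Arc, 754 to 1445 in the VMH and DMH, and 1288 and 3546 in the LH. Among them *Prok2* (599 and 1319) and *Six6* (900 and 1293), named after their values were seen, were measured on the Arc arrays alone, whereas *Lhx1* was highest in the LH (608 and 657), *Rgs16* in the DMH (760 and 761) and *Avp* on the second LH array (2432). Of the 6 paraventricular markers, 5 were tested and 3 of them called, with sums of 8950 and 3109 in the Arc, 625 and 1562 in the VMH, 8292 and 13028 in the DMH, and 12429 and 20590 in the LH. *Oxt*, also named after its values were seen, differed within nuclei, at 6559 and 848 in the Arc, 25.4 and 1242 in the VMH and 109 and 8332 in the LH. The part of these markers in the differences among the nuclei was not tested.

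Sequences upstream of the transcript starts are shown first for both peptide genes and *Bdnf*, in windows that hold a half-site of the cyclic AMP response element, because both peptides signal through cyclic AMP and the *Adcyap1* and *Bdnf* transcripts showed the differences described next. The windows are the 250 bases before those transcript starts that the promoter table used here, from RefSeq on the mouse build GRCm38.p6, gives for these genes, all on the plus strand, with the half-site in capitals. The table does not hold every start, and for *Adcyap1*, *Adcyap1r1*, *Vip*, *Vipr2* and *Ntrk2* every window given reaches past the start of the annotated gene. The letters TGACG were searched on both strands, so that a match on the other strand reads CGTCA.
*Adcyap1* (chr17:93198767-93199016, half-site 91 bases before the start): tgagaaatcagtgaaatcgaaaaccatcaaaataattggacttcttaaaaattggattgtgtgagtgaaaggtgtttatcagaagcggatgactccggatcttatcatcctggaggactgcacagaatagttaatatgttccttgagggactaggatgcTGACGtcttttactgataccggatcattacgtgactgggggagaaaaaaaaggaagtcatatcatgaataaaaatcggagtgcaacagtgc
*Vip* (chr10:5638968-5639217, half-site 79 bases before the start): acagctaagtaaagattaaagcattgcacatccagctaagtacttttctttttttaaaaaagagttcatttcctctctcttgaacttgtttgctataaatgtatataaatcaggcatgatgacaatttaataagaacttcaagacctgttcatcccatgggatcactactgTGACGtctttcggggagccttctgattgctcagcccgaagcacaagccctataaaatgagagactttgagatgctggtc
*Bdnf* (chr2:109692186-109692435, half-site 35 bases before the start): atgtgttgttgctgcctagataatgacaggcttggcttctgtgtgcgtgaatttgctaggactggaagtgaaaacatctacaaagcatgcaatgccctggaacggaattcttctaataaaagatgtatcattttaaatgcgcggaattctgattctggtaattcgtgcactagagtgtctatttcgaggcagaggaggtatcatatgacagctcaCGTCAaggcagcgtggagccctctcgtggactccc
In the *Adcyap1* and *Vip* windows the half-site continued to TGACGTC, and neither window held the full palindrome TGACGTCA. The *Bdnf* gene spans positions 109674700 to 109727043 of chromosome 2, and 1 of its 7 windows had a half-site, the one printed. The other windows with a half-site were the second *Adcyap1* window, which overlaps the first and holds the same site, and the window of *Vipr1*. The 1 window each of *Adcyap1r1*, *Vipr2* and *Ntrk2* held none. Over all 32851 windows, 17.8% held TGACG on either strand, 2.78% held TGACGTC, and 1.55% held TGACGTCA. A match describes the letters only.

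*Adcyap1*, which encodes PACAP, was highest in the VMH, intermediate in the DMH and LH and lowest in the Arc. Its probe A_52_P425667 (NM_009625, chromosome 17, 93198245 to 93206541) was measured on all 8 arrays. The scaled signal was 17586 and 18972 in the VMH, 2399 and 2821 in the DMH, 2143 and 2607 in the LH, and 1094 and 637 in the Arc. Both VMH arrays lay above all others and both Arc arrays below all others, whereas the DMH and LH arrays overlapped. The means were 18279 ± 980 in the VMH, 2610 ± 298 in the DMH, 2375 ± 328 in the LH and 865 ± 323 in the Arc (SD, n = 2 arrays each).

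The 4 nuclei did not share 1 level of *Adcyap1* (F-test of limma, adjusted p = 0.00209). On the log2 scale, the VMH exceeded the Arc by 4.45 (SE 0.29, limma adjusted p = 0.000768), a ratio of 21.9. The VMH exceeded the DMH by 2.81 (SE 0.29, limma adjusted p = 0.00644), a ratio of 7.02, and the LH by 2.95 (SE 0.29, limma adjusted p = 0.00399), a ratio of 7.73. The VMH thus stood apart from each of the other nuclei by more than the spread between arrays. The LH exceeded the Arc by 1.50 (SE 0.29, limma adjusted p = 0.0243), whereas the difference of 1.64 between the DMH and the Arc did not pass the threshold (SE 0.29, limma adjusted p = 0.0571). The DMH and the LH, neighbours in the order of levels, differed by 0.14 with a 95% interval of -0.55 to 0.83 (limma adjusted p = 0.841). The comparison of the LH with the Arc lost its call without the second Arc array (limma adjusted p = 0.108), without either VMH array (0.0517 each), without the second LH array (0.0524) and in a fit of the Arc and LH arrays alone (0.109), and that of the VMH with the DMH lost it without the first (0.0550) or second (0.0564) VMH array or the first DMH array (0.0606). The difference between the DMH and the Arc passed without either LH array (limma adjusted p = 0.0458 each).

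*Bdnf* followed the same order at its ends, with the VMH highest and the Arc lowest. Its probe A_55_P2036303 (NM_007540) was measured on the 6 arrays of the VMH, DMH and LH and on neither Arc array. The scaled signal was 1730 and 1735 in the VMH, 590 and 498 in the LH, 275 and 492 in the DMH, and 92.2 and 35.1 in the Arc, where it was not well above background. Both VMH arrays lay above all others, the LH arrays lay just above the DMH arrays, and both Arc arrays lay below all others. The means were 1733 ± 3.32 in the VMH, 544 ± 65.0 in the LH, 383 ± 153 in the DMH and 63.7 ± 40.4 in the Arc (SD, n = 2 arrays each).

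The F-test of limma called *Bdnf* as well (adjusted p = 0.00658), so that 2 of the 6 tested probes, those of *Adcyap1* and *Bdnf*, were called across the nuclei, where 8.34% of all 28896 tested probes were. The plain one-way test did not call *Bdnf* (adjusted p = 0.0877), and with the filter on all 8 arrays it was not tested. The Arc signals give only a bound, which was taken against the lowest measured signal of each Arc array. Against the Arc, *Bdnf* was higher by at least 15.3-fold in the VMH (limma adjusted p = 0.00285) and by at least 4.80-fold in the LH (limma adjusted p = 0.00902). For the DMH the bound was 3.25-fold, and the comparison did not pass the threshold (limma adjusted p = 0.0549). The VMH exceeded the DMH by 2.24 on the log2 scale (SE 0.47, limma adjusted p = 0.0803, 95% interval 1.12 to 3.36) and the LH by 1.68 (SE 0.47, limma adjusted p = 0.101, 95% interval 0.56 to 2.79). Neither difference passed the threshold over all probes, nor did the LH and DMH differ beyond their spread (log2 difference 0.56, limma adjusted p = 0.584). With the normexp background correction, the log2 differences from the Arc were 2.81 in the VMH and 1.46 in the LH, in place of 4.93 and 3.25. These sizes lay below the bounds, and both comparisons still passed (limma adjusted p = 0.000158 and 0.00351). In a fit of the Arc and LH arrays alone the comparison of these nuclei lost its call (limma adjusted p = 0.0542). Without the first Arc array the comparisons of *Bdnf* between the DMH and the Arc (limma adjusted p = 0.0482) and between the VMH and the DMH (0.0419) passed. The latter also passed without the second Arc array (0.0419), and the former without either LH array (0.0470 each).

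Counted by comparison and in either direction, 2 of the 6 tested probes differed between the Arc and the VMH, beside 5.92% of all probes, and 2 between the Arc and the LH, beside 9.34%. Both were lower in the Arc in each case. *Adcyap1* alone was called between the VMH and the DMH, beside 2.04% of all probes, and between the VMH and the LH, beside 5.28%. With limma 0 of the 6 were called between the Arc and the DMH, beside 1.26% of all probes, although 2 had an unadjusted p under 0.05. Between the DMH and the LH 0 were called with limma, beside 0.924% of all probes, and 0 had an unadjusted p under 0.05. The share of all probes with an unadjusted p under 0.05 is not given here for either comparison.

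**Figure D1:**
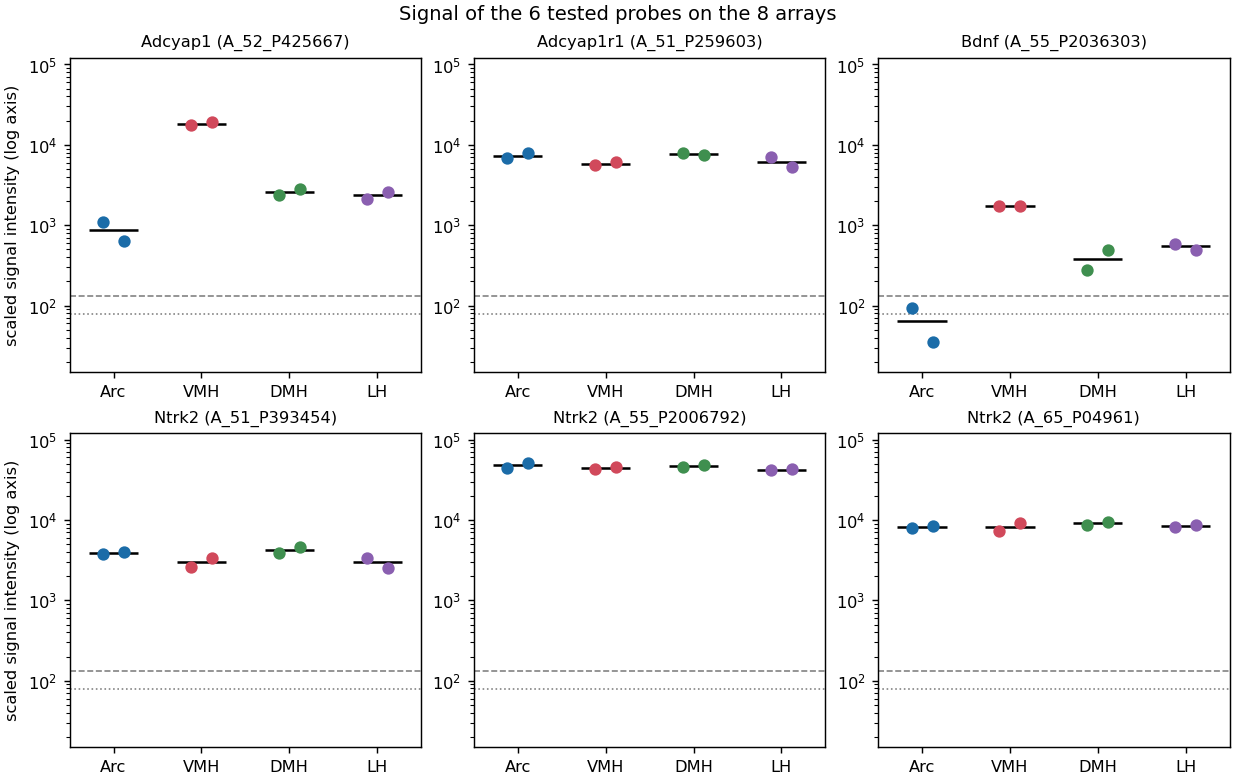
Scaled signal intensity (log axis) of the 6 tested probes in the Arc, VMH, DMH and LH, with 1 point per array and a bar at the mean of the 2 arrays. The grey lines mark the lowest and highest of the 8 arrays' lowest measured signals (79.3, dotted, and 132, dashed). *Adcyap1* and *Bdnf* are highest on both VMH arrays, the Arc points of *Bdnf* lie below the dashed line, and the points of *Adcyap1r1* and *Ntrk2* stay above both lines on every array.

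Of the receptor genes, *Adcyap1r1* and *Ntrk2* were measured on every array. *Adcyap1r1*, which encodes PAC1, had 1 probe, A_51_P259603 (NM_007407, chromosome 6). Its scaled signal was 6875 and 7832 in the Arc, 5544 and 6051 in the VMH, 7922 and 7518 in the DMH, and 7039 and 5257 in the LH. The VMH, where the PACAP transcript was highest, had the lowest mean of its receptor, but its arrays overlapped those of the LH. The largest difference was that of 0.41 on the log2 scale between the DMH and the VMH (SE 0.22, limma adjusted p = 0.536), and its 95% interval ran from -0.11 to 0.94. The F-test did not call the probe (limma adjusted p = 0.478). Differences up to 1.91-fold in that comparison thus lay within the interval.

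*Ntrk2*, the TrkB gene, lies on chromosome 13 (58806472 to 59133970) and makes a full-length receptor with a kinase domain and truncated forms without it, the latter known from astrocytes. It had 3 probes, whose levels are not compared with each other, and which form each of them reads was not determined here. Probe A_51_P393454 (NM_001025074) gave 3721 and 4019 in the Arc, 2614 and 3343 in the VMH, 3867 and 4554 in the DMH, and 3366 and 2555 in the LH. Its Arc and DMH arrays all lay above its VMH and LH arrays, but the F-test did not call it (limma adjusted p = 0.359). Its largest difference was 0.52 on the log2 scale between the DMH and the LH, with a 95% interval of -0.05 to 1.08 (limma adjusted p = 0.355). Probe A_55_P2006792 (NM_001025074) ranged from 42180 to 50623 over the 8 arrays, with its largest difference, 0.17, between the Arc and the LH (95% interval -0.28 to 0.61, F-test adjusted p of limma = 0.880). Probe A_65_P04961 (NM_008745) ranged from 7329 to 9423, with its largest difference, 0.14, between the DMH and the VMH (95% interval -0.34 to 0.62, F-test adjusted p of limma = 0.927). None of the 3 probes separated the VMH, where *Bdnf* was highest, from the other nuclei. Astrocyte markers, 8 in number with 2 called, summed to between 72423 and 117914 on the 8 arrays, and the sums were highest on the LH arrays. Singly, *Slc1a2* and *Aldh1l1* were highest on both LH arrays. *Gfap* was highest on both Arc arrays (3735 and 6337, against 2412 and 3109 in the LH) and *Slc1a3* on both DMH arrays (7572 and 7667). *Aqp4*, *Gja1*, *Slc7a10* and *Aldoc* were highest on both arrays of no nucleus. By limma 0 of the 4 receptor probes were called by the F-test, beside 8.34% of all probes, and 0 had an unadjusted p under 0.05 in it. So few probes cannot show a share lower than that of all probes.

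**Figure D2:**
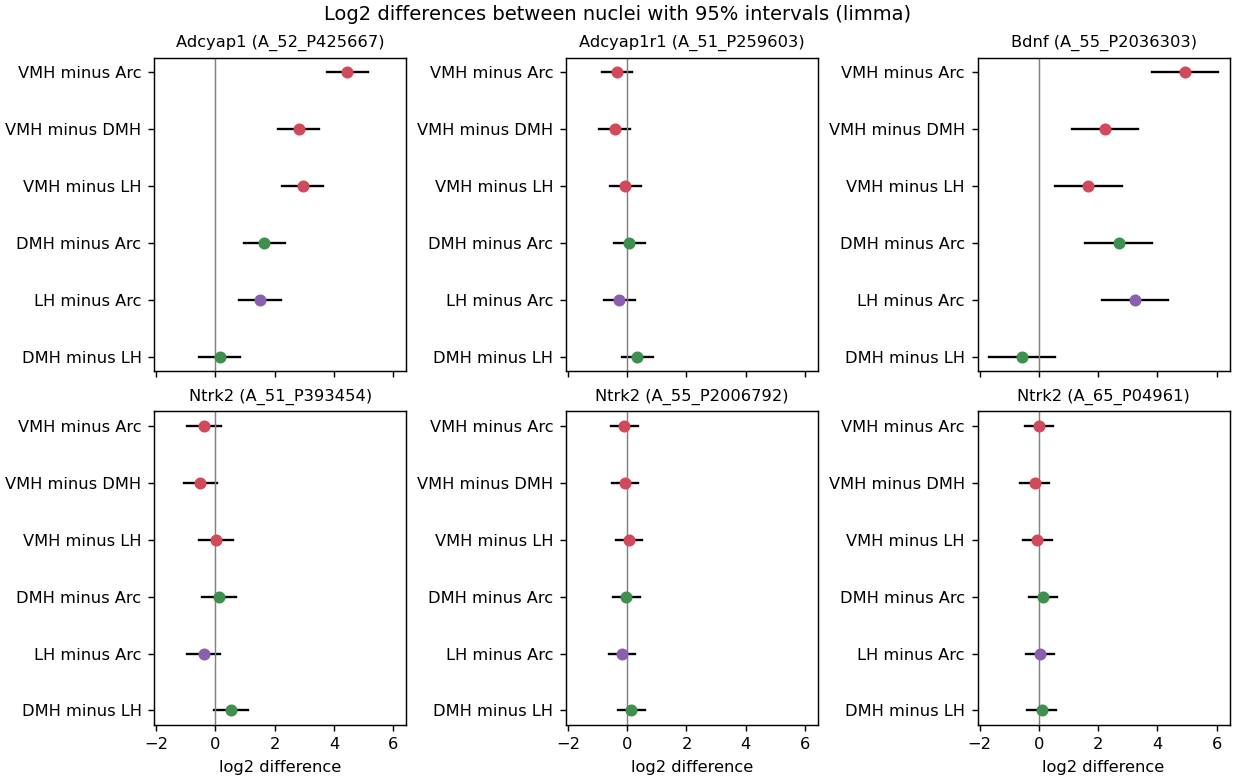
Log2 differences between pairs of nuclei for the 6 tested probes, with 95% intervals from limma as bars, in which a point to the right of 0 is higher in the nucleus named first. The 3 VMH differences of *Adcyap1* run from 2.81 to 4.45, and all intervals of *Adcyap1r1* and *Ntrk2* include 0.

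*Vip* and the genes of the receptors shared by VIP and PACAP were not measured in these nuclei, apart from 1 value. The *Vip* probe A_51_P368313 gave scaled signals of 18.8 to 28.3 and was well above background on 0 of 8 arrays. *Vipr1*, which encodes VPAC1, had 2 probes with signals of 19.6 to 30.8 and 18.6 to 27.4, neither of them measured on any array. *Vipr2*, which encodes VPAC2, had 3 probes. Probes A_51_P342773 (20.01 to 52.0) and A_51_P473205 (18.9 to 29.0) were measured on no array. The third, A_55_P2033676, ranged from 21.7 to 118 and was well above background on the first DMH array alone, at 118. Of the 48 values of these 6 probes, that was the 1 value at or above the lowest measured signal of its array, so no level and no order among the nuclei is given for these genes. A signal below that limit does not show that the transcript is absent.

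**Figure D3:**
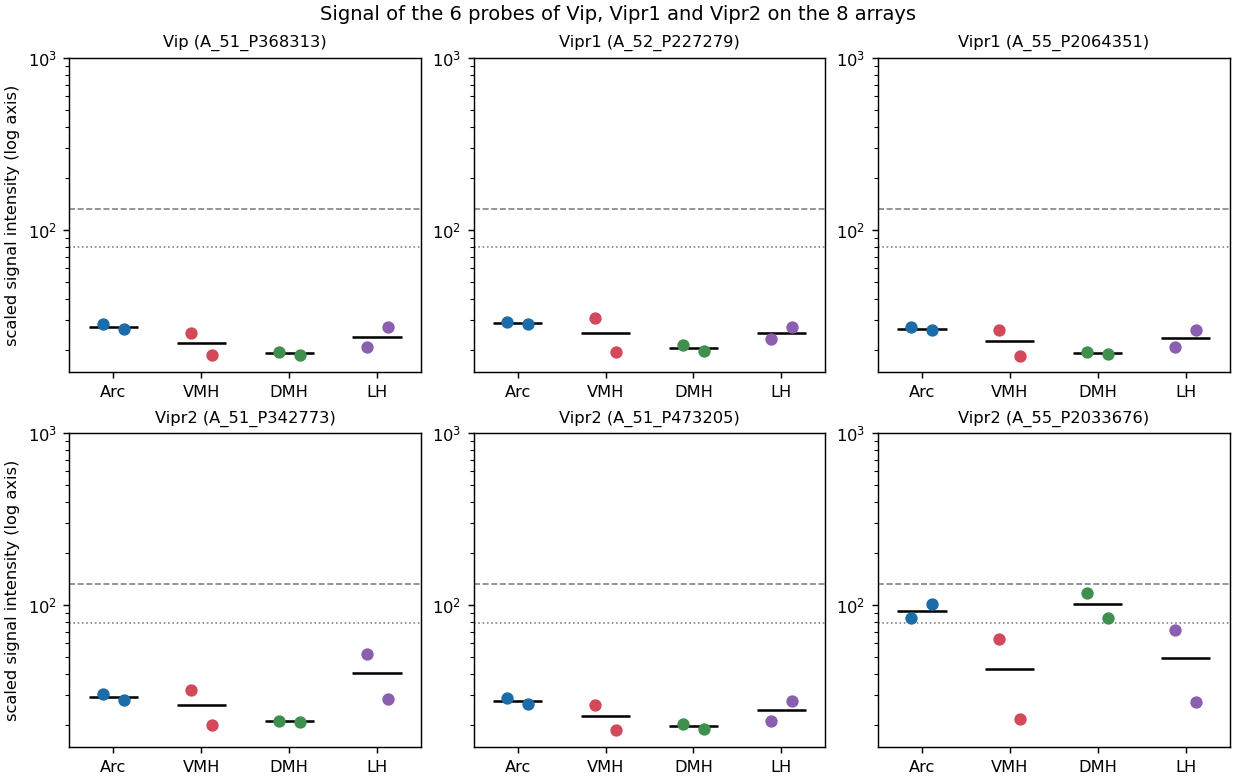
Scaled signal intensity (log axis) of the 6 probes of *Vip*, *Vipr1* and *Vipr2*, with 1 point per array, a bar at the mean of the 2 arrays, and grey lines at 79.3 (dotted) and 132 (dashed), the range over arrays of the lowest measured signal. The points of 5 probes lie at or under 52.0, and the third *Vipr2* probe reaches 118 on a DMH array.

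The genes closest to *Adcyap1* and *Bdnf* across the 8 arrays were taken by Pearson correlation of log2 scaled signals, as a description with no test, since the 8 points share 4 nuclei. Among 14348 probes, those closest to *Adcyap1* were of *Synpo* (r = 0.990), which encodes the actin-associated protein synaptopodin, the RNA-binding protein gene *Celf2* (r = 0.983), and *Baiap2* (r = 0.979), which encodes the postsynaptic protein IRSp53. *Synpo* had mean scaled signals of 16465 in the VMH and 3545 to 6481 in the other nuclei. *Baiap2* had 6559 in the VMH and 1190 to 2363 elsewhere, and *Celf2* 11379 and 5158 to 6377. All of them shared the high VMH and the low Arc, over a narrower range than *Adcyap1*.

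Among 14454 probes, those closest to *Bdnf* were of *Cckbr* (r = 0.991), which encodes a cholecystokinin receptor, of *Khdrbs2* (r = 0.989), which encodes an RNA-binding protein, and of the clock output gene *Dbp* (r = 0.988). *Cckbr* ran from a mean of 59.8 in the Arc to 415 in the DMH, 908 in the LH and 2895 in the VMH, the same order of nuclei as *Bdnf*. Its Arc values of 82.0 and 37.7, like those of *Bdnf*, were below the lowest measured signals of those arrays (100 and 127), so both r and the lower end of the range rest on values not well above background. *Khdrbs2* ran from 481 in the Arc to 1467 in the VMH. *Dbp* ran from 9954 to 14788, and the F-test of limma did not call it (adjusted p = 0.279). A high correlation thus also came with a narrow range. *Adcyap1* and *Bdnf* correlated with each other at 0.923 over the 8 arrays.

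**Figure D4:**
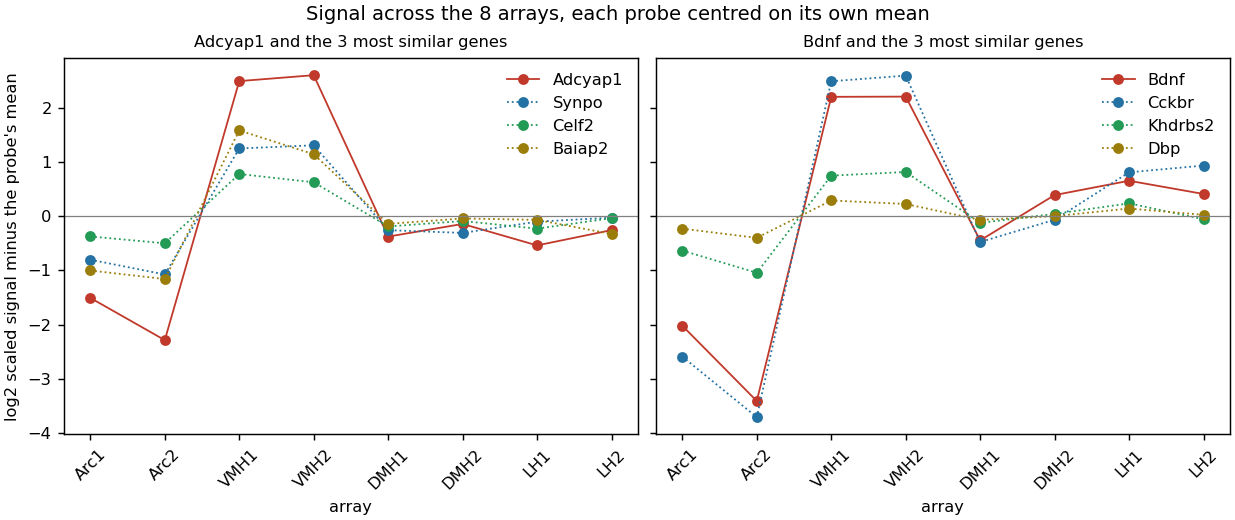
Log2 scaled signal of *Adcyap1* (left) and *Bdnf* (right) and the 3 genes most like each, by array, with each probe centred on its mean over the 8 arrays. All 8 lines peak on the VMH arrays and lie lowest on the Arc arrays, and *Cckbr* follows *Bdnf* over a similar range whereas *Dbp* stays close to 0.

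Relatives of PACAP and VIP were followed in a list of the 10 other class B ligands and receptors. Of the 5 measured, 3 (60%, beside 8.34% of all probes) were called by the F-test, and the 5 not measured were *Gcg*, *Glp2r*, *Gip*, *Gipr* and *Ghrhr*. *Ghrh*, the growth hormone releasing hormone gene, was highest in the Arc and lowest in the VMH, the ends of the order of *Adcyap1* exchanged, with a mean scaled signal of 13434 in the Arc, 2586 in the DMH, 974 in the LH and 279 in the VMH (F-test of limma, adjusted p = 0.00225). *Glp1r*, the receptor gene of glucagon-like peptide 1, was also highest in the Arc, at 2133, and lowest in the LH, at 380 (limma adjusted p = 0.0118). *Sct*, the secretin gene, was highest in the VMH, at 697, against 172 in the DMH and 208 in the LH (limma adjusted p = 0.0191). The median range over the 4 nuclei was 2.02 on the log2 scale in this list and 0.65 over all tested probes. In this list and those below, each gene counts by its brightest tested probe. The share and range over all probes count every tested probe, dim ones and further probes of a gene included, so the sets are unlike.

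Of the 28 genes of cyclic AMP signalling, all were measured and 5 (17.9%, beside 8.34% of all probes) were called. *Gnas* and *Pde4b* count as not called by their brightest probe, although 2 of 3 and 1 of 3 of their tested probes were called. *Crtc1*, a coactivator of CREB, was highest in the VMH, at a mean of 19429, with 6517 to 7522 in the other nuclei (limma adjusted p = 0.0154). *Adcy7*, an adenylyl cyclase gene, was lower in the VMH (381) and Arc (525) than in the DMH (1644) and LH (1567; limma adjusted p = 0.00543). The phosphodiesterase genes *Pde4a* (limma adjusted p = 0.0105) and *Pde1b* (0.0142) were lowest in the Arc and highest in the LH, with means of 1921 and 9032 for *Pde4a* and of 3287 and 10808 for *Pde1b*. *Rapgef3*, which encodes a cyclic AMP-gated exchange factor and was named after its values were seen, had means of 4359 in the Arc and 11839 in the LH (limma adjusted p = 0.0299). By mean, *Pde4a*, *Pde1b* and *Rapgef3* were thus highest in the LH, *Crtc1* in the VMH and *Adcy7* in the DMH. The median range over nuclei was 0.71 on the log2 scale in this list, against 0.65 over all probes.

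On the BDNF side, 6 of the 10 other neurotrophin and receptor genes were measured and 2 (33.3%, beside 8.34% of all probes) were called. The median range over nuclei was 1.16 on the log2 scale, against 0.65 over all probes. *Ngfr*, which encodes the low-affinity neurotrophin receptor, had scaled signals of 215 and 227 in the VMH, against 3202 and 6158 in the Arc, 2842 and 2392 in the DMH and 2490 and 4799 in the LH (limma adjusted p = 0.00432). It was thus lowest in the nucleus where *Bdnf* was highest. *Sort1*, which encodes the sorting receptor sortilin, was lowest in the Arc, at a mean of 223, with 446 in the DMH, 898 in the LH and 915 in the VMH (limma adjusted p = 0.0101). The other of its 2 tested probes was not called.

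Among 25 genes of Trk receptor signalling, 24 were measured, *Sos1* not, and 5 (20.8%, beside 8.34% of all probes) were called. *Shc1*, an adaptor (limma adjusted p = 0.0112), and *Dusp6*, a phosphatase of ERK (0.0250), were lowest in the VMH, at means of 513 and 2120, beside 1688 and 4998 in the Arc. *Gab1*, another adaptor, was also lowest in the VMH, at 669, and highest in the LH, at 1944 (limma adjusted p = 0.0382). *Mapk3*, which encodes the kinase ERK1, ran the other way, with 8115 in the VMH and 3744 to 4145 elsewhere (limma adjusted p = 0.0260). Of its 2 tested probes, only this 1 was called. *Frs3*, an adaptor named after its values were seen, had 531 in the VMH and 1106 to 1525 elsewhere (limma adjusted p = 0.0393). By mean, the VMH was thus lowest for 4 of the 5 and highest for 1. At the other end, the LH was highest for *Dusp6*, *Gab1* and *Frs3*, and the Arc was highest for *Shc1* and lowest for *Mapk3*. Between the VMH and the DMH, only *Mapk3* passed the threshold (limma adjusted p = 0.0370). Over the 24 measured genes the median log2 difference was 0.11 for Arc minus VMH, -0.07 for VMH minus DMH and -0.11 for VMH minus LH. The median range over nuclei was 0.60 in this list, against 0.65 over all probes.

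The genes that process and store such peptides gave 3 calls of 10 (30%, beside 8.34% of all probes), all 10 being measured. The median range over nuclei was 0.58 on the log2 scale, against 0.65 over all probes. *Pcsk1* and *Pcsk2* encode the prohormone convertases and *Chga* chromogranin A of secretory granules. *Pcsk1* was highest in the LH, at a mean of 2944, and lowest in the VMH, at 997 (limma adjusted p = 0.0141). *Pcsk2* was high in both of these nuclei, at 23474 in the VMH and 22871 in the LH, and lowest in the Arc, at 10197 (limma adjusted p = 0.0495). Its second tested probe (of 2) was not called. *Chga* was highest in the VMH, at 14549, and lowest in the Arc, at 5708 (limma adjusted p = 0.0481). By mean, the convertases thus differed in where they were lowest. Against the DMH, though, neither the VMH for *Pcsk1* (limma adjusted p = 0.567) nor the Arc for *Pcsk2* (0.409) passed the threshold.

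Of 12 genes that respond to cyclic AMP and calcium, all measured, 2 (16.7%, beside 8.34% of all probes) were called, and the median range over nuclei was 1.46 on the log2 scale, against 0.65 over all probes. *Nptx2*, which encodes a secreted protein of excitatory synapses, had scaled signals of 40690 and 57044 in the VMH, 21069 and 13033 in the LH, 11759 and 10972 in the DMH, and 3402 and 4359 in the Arc (limma adjusted p = 0.00432). By mean it had the same order of nuclei as *Bdnf*, although the DMH and the LH did not differ past the threshold for *Nptx2* (limma adjusted p = 0.422) or *Bdnf* (0.584). *Fos*, an immediate early gene, was lowest in the VMH, at a mean of 124, and highest in the DMH, at 1248 (limma adjusted p = 0.0185). Its value on the first VMH array, 90.4, was below the lowest measured signal of that array (122). The VMH mean of *Fos* thus rests in part on a value not well above background. Both are counted as responsive genes, and their means in the VMH stood at opposite ends.

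The counts of these lists depended on single arrays and on the test. Under the plain one-way test, without moderation, the Trk signalling and processing lists gave 1 call each and the class B, cyclic AMP, neurotrophin and responsive lists 0, and 527 of all probes were called. With no scaling between arrays the Trk signalling list gave 1 call and the processing list 0, whereas the responsive list gave 5 with normexp. Without 1 array, all probes called by the F-test numbered between 872 (first Arc array) and 3786 (second LH array), and the Trk signalling list gave 0 calls without either Arc or either VMH array and 1 without either DMH array. The cyclic AMP list gave 1 call without either Arc array and 3 without either VMH array, and the processing list gave 0 without either VMH array and 1 without any one of the Arc or DMH arrays. The neurotrophin list gave 1 without either Arc array. The responsive list gave 1 call without either VMH array or the first DMH array and 4 without either LH array. The lists were drawn up with earlier results of these arrays known, and their shares are descriptions.

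**Figure D5:**
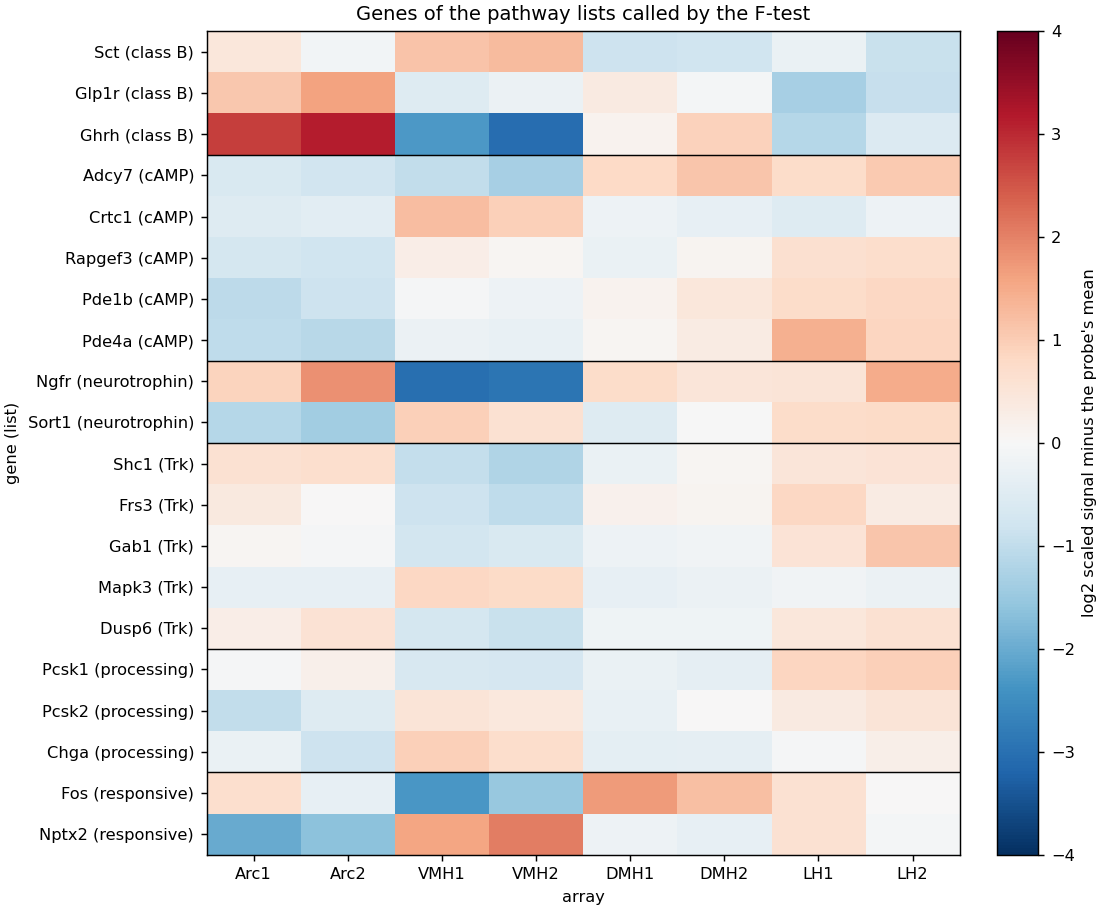
Log2 scaled signal of the 20 list genes called by the F-test, 1 column per array, centred on each probe's mean over the 8 arrays (red higher, blue lower) and grouped by list. *Ghrh* is highest on the Arc arrays, *Ngfr*, *Fos* and *Ghrh* are lowest on the VMH arrays, and *Nptx2* is highest there.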

How the data were processed

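Laser-microdissected Arc, VMH, DMH, and LH were profiled on 8 Agilent arrays, 2 per nucleus, and the groups were taken from the sample titles. Per the study's methods, RNA was amplified as a whole transcriptome and Cy5 was read, whereas the labels name Cy3; the files hold the red channel. The authors deposited the intensity of each spot as Agilent Feature Extraction gave it (10.7.3.1 in the headers, 11.5.1.1 in the labels), after background subtraction, removal of trends within the array, and a floor on low values. The deposited table of the whole series equals the probe means to within 0.51 for at least 99.7% of values, so it carries no scaling between arrays.

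Outlier spots were left out, including 1 of the 10 spots of *Ntrk2* probe A_51_P393454 on the first LH array, the other spots of each probe averaged, and log2 taken after division by the array's 75th percentile. The 28896 probes that both arrays of some nucleus measured well above background entered one limma fit (limma 3.58.1, R 4.3.3) with a mean per nucleus. The moderated F-test and the 6 two-sided contrasts were adjusted by Benjamini-Hochberg over all 28896 probes, with a threshold of 0.05. Symbols came from RefSeq accessions (GRCm38.p6), which named 26762 of 28390 probes (94.3%). For a gene of a list, the brightest probe stands. In simulated data for the F-test on 28896 probes, raised in the VMH, 69% of 100 probes raised 4-fold and 98% of 100 raised 16-fold were called. The number of arrays limits the precision.

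Named in the text were all member probes, up to 4 called genes per list with the lowest F-test adjusted p, and the 3 genes most like each called member; others are said to be named after their values were seen. The members and lists were chosen with earlier results of these data known. The alternatives were other scalings, normexp (offset 50), the series table, other filters on dim probes, the outlier spots, a floor at each array's lowest measured signal, a replicate block, each array left out, trended and robust moderation, a plain one-way test, and fits of 2 nuclei alone.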

Additional observations from a re-analysis of the deposited data

How the results depend on the processing

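The F-test called both *Adcyap1* and *Bdnf* under every alternative except the filter on all 8 arrays (1 call, since *Bdnf* was then not tested) and the plain one-way test (1 call, *Adcyap1*, adjusted p = 0.0458; *Bdnf* 0.0877). The filter on all 8 arrays also left 1 call each in Arc against VMH and Arc against LH. For the Arc against the DMH, where no member was called, 2 were called with no scaling, normexp, dim signals raised, and trended and robust moderation, 1 with quantile normalization and 1 with the filter on all 8 arrays; leaving out 1 array gave 0 to 2. For the VMH against the DMH, 2 were called with normexp, dim signals raised, trended and robust moderation, and the fit of these nuclei alone; leaving out 1 array gave 0 to 2. For the VMH against the LH, 2 were called with normexp and dim signals raised. For the Arc against the LH, 0 were called in the fit of these nuclei alone, and leaving out 1 array gave 1 to 2. Of the 6 differences each of *Adcyap1* and *Bdnf* and the largest difference of each other tested probe, 2 reversed, both near 0: that of *Adcyap1* in the DMH against the LH without the first LH array (-0.0031, and 0.28 without the second) and that of *Ntrk2* probe A_65_P04961 in the VMH against the DMH without the first VMH array (0.018, and -0.30 without the second). The 6 differences of each *Adcyap1r1* and *Ntrk2* probe gave 480 values over the alternatives, and 23 of these turned sign at sizes up to 0.46. None passed the threshold where both arrays of each nucleus were kept. The cause of these changes was not tested, apart from the filter's fewer probes.

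With the replicate number as a block, 2 members were called by the F-test, 2 in Arc against VMH, 0 in Arc against DMH, 2 in Arc against LH, 1 in VMH against DMH, 1 in VMH against LH, and 0 in DMH against LH, so the block changed no member count. Same-numbered arrays deviated together only in part, with correlations of -0.027 to 0.26 over the 6 pairs of nuclei, and the labels do not say whether they share an animal, so no pairing was assumed. With the block, the probes called between the DMH and the LH fell from 267 to 161, the processing list gave 1 call and the responsive list 4. Over all probes, the plain one-way test called 527 in place of 2410. With no scaling the Arc against the LH gave 1621, the VMH against the LH 834 and the DMH against the LH 167, with no filter on dim probes the last 2 gave 959 and 118, and in fits of 2 nuclei alone these 3 gave 823, 274 and 0. Trended and robust moderation gave 413 between the DMH and the LH. Without scaling the median of all probes shifted by up to 0.46 on the log2 scale (DMH above Arc).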
